A study of Mus musculus with 6 samples.

Results

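The retinal transcriptome of light-exposed mice treated with minocycline was compared with that of light-exposed mice without the drug. The comparison used 4 of the 6 libraries of the RNA-seq data set, 2 per group, and 14750 of the 23420 genes in the count table passed the filter on low counts. The labels describe CD1 mice exposed to light of 10000 lux for 1 h and analysed on day 4, and minocycline at 45 mg/kg given intraperitoneally each day for 4 days. The study's methods name BALB/cJ mice of both sexes, a stronger light and a longer course of injections that began before the light, so the strain and the schedule cannot be settled here. None of the sources states that the light-exposed mice of this data set received vehicle, so the drug and its injection cannot be told apart. The other 2 libraries came from control retinas without light exposure and are given here as the background level. The table heads the 2 minocycline columns identically, which leaves no replicate number to tell them apart, and the letters A and B are used for them in column order.

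Total counts were between 15205930 and 22856922 per library, and 3 counts, the limit that a count of 0 allows, corresponded to 0.131 to 0.213 CPM. CPM is the count scaled to the TMM-adjusted library size, and this limit covers counting error only. The Pearson correlation of log2 CPM within a group was 0.981 to 0.983 over genes, which do not count as independent replicates, and 54 to 81 genes lay 4 times or more apart between the libraries of a group. The counts within each group differed by more than sampling noise, so no library was a second copy of another. Neither source names the animals behind each library, so p-values measure the spread between these samples. All 4 libraries compared contained transcripts of Y-linked genes, with 6532 to 9297 counts of the 4 genes examined. The lowest, 6532, was in light-exposed replicate 1, which also had 188 counts of Xist. Xist had 40 counts in light-exposed replicate 2, and 27 and 26 in minocycline A and B. The controls were unlike each other, with 11 counts of the Y-linked genes and 77778 of Xist in replicate 1, and 12858 and 25 in replicate 2. The defining transcripts of retina were abundant throughout, with the rod transducin gene Gnat1 at 7761 CPM or more in each library.

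Intense light kills photoreceptors, and the resident immune cells of the retina, the microglia, leave the plexiform layers for the photoreceptor layer and take up debris there. Müller cells, the radial glia of the retina, respond to the same injury with gliosis and with secreted acute phase and neurotrophic proteins. Minocycline is a tetracycline antibiotic that enters the central nervous system and is known to dampen microglial activation.

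Of the 14750 genes, 8 passed edgeR's quasi-likelihood test at a Benjamini-Hochberg adjusted p under 0.05. Lcn2, Serpina3n, Steap4, Timp1, Kif4 and Pros1 fell with minocycline, and Dsp and Calml3 rose. With the study's cutoff of a log2 fold change of at least 2, Pros1 dropped out, which left 5 genes called lower, 0.0339% of those tested, and 2 called higher, 0.0136%. At an adjusted p under 0.1, 605 genes (4.1%) lay lower with minocycline and 277 (1.88%) higher. At an unadjusted p under 0.05 the numbers were 1783 genes (12.1%) and 1334 genes (9.04%). With a call resting on 2 libraries per group, the number of calls depended strongly on the method. DESeq2 without shrunken fold changes called 293 genes lower and 106 higher, and edgeR with total library size in place of TMM called 0, although 3452 genes had an unadjusted p under 0.05 there. In the text below, rose and fell are used of the 8 genes alone, and the other genes are described by their levels.

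**Figure D1:**
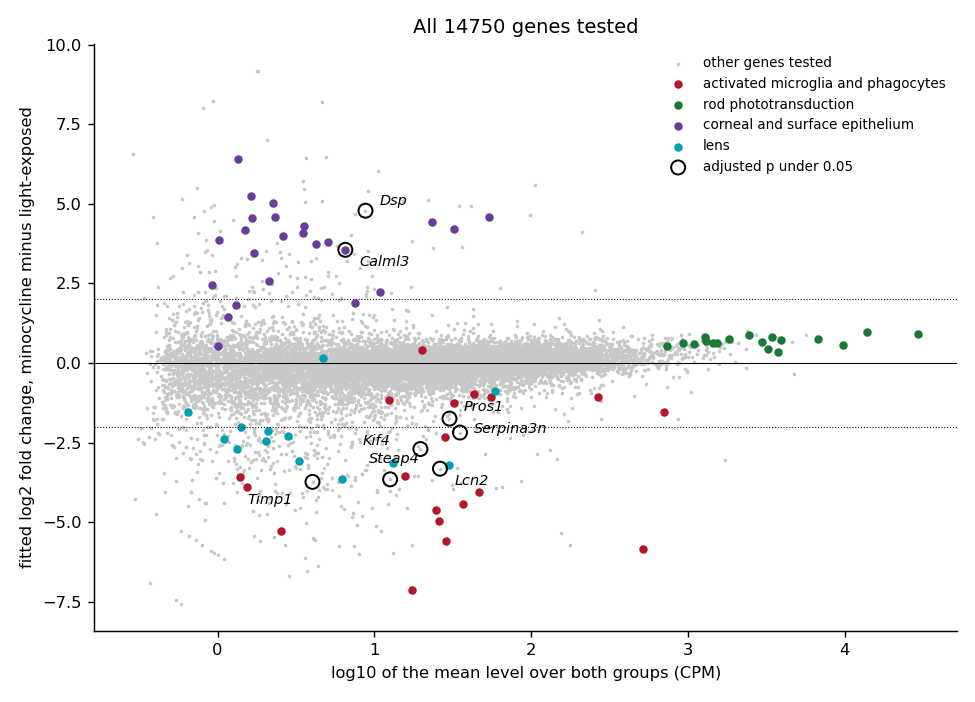
Fitted log2 fold change of minocycline minus light-exposed libraries (vertical axis) against log10 of the mean CPM of both groups (horizontal axis) for all 14750 genes tested; open circles mark the 8 genes with an adjusted p under 0.05, colours mark 4 gene lists and dotted lines the fold cutoff of 2. Genes of activated microglia lie low and genes of surface epithelium high, whereas the abundant rod genes sit at the right within 1 log2 unit of 0.

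Steap4, a metalloreductase of the iron and copper metabolism (chr5:7960472-7982213), had 26.5 and 20.3 CPM in light-exposed replicates 1 and 2. It had 2.00 and 1.64 CPM in minocycline A and B, and 0.427 and 0.493 CPM in the controls. Both minocycline libraries were thus far below both light-exposed libraries and still above both controls. Steap4 fell 12.6-fold (log2 fold change -3.66, SE 0.26, adjusted p = 0.0239), the smallest adjusted p of the comparison.

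Lcn2 encodes lipocalin 2, an acute phase protein that binds bacterial siderophores (chr2:32384637-32387739). Its level was 58.0 and 37.5 CPM in the light-exposed libraries, 5.53 and 3.87 CPM with minocycline and 5.55 and 5.35 CPM in the controls. The minocycline libraries overlapped with the controls. Lcn2 fell 10.0-fold (log2 fold change -3.32, SE 0.28, adjusted p = 0.0444).

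Serpina3n, a secreted inhibitor of serine proteases and a marker of reactive astrocytes (chr12:104406646-104414334), was at 51.8 and 63.9 CPM after light and at 13.9 and 11.2 CPM with minocycline. Control retinas had 4.41 and 3.52 CPM, so the minocycline libraries lay between the other groups. The log2 fold change was -2.19 (SE 0.18, adjusted p = 0.0307). Serpina3n belongs to a cluster of near-identical paralogs, among which short reads may be divided.

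Timp1, the inducible tissue inhibitor of metalloproteinases (chrX:20870166-20874737), had 8.47 and 6.56 CPM after light, 0.523 and 0.583 CPM with minocycline, and 0.284 and 0.352 CPM in the controls. It fell 13.3-fold (log2 fold change -3.74, SE 0.38, adjusted p = 0.0444). The minocycline libraries were close to the controls and far below the light-exposed libraries.

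Pros1 encodes protein S, an anticoagulant that also bridges phosphatidylserine on dying cells to receptors of the TAM family on phagocytes (chr16:62854307-62929346). It was at 40.4 and 52.9 CPM after light and at 14.2 and 13.2 CPM with minocycline. Controls had 11.4 and 22.97 CPM, on either side of the minocycline libraries. The fall of 3.36-fold (log2 fold change -1.75, SE 0.18, adjusted p = 0.0444) was below the fold cutoff.

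Kif4 encodes a chromosome-associated kinesin of mitotic cells (chrX:100626065-100727271). It had 32.8 and 35.6 CPM after light and 6.62 and 3.71 CPM with minocycline (log2 fold change -2.70, SE 0.27, adjusted p = 0.0444). The controls were 5.19 and 13.7 CPM, well apart from each other and overlapping with minocycline.

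Dsp and Calml3 moved the other way. Desmoplakin, the product of Dsp, anchors keratin filaments at desmosomes (chr13:38151294-38198577). Dsp was at 0.351 and 0.855 CPM after light, at 13.1 and 20.8 CPM with minocycline and at 1.21 and 1.41 CPM in the controls (log2 fold change 4.78, SE 0.47, adjusted p = 0.0444). Calml3, an epithelial calmodulin-like protein (chr13:3802893-3804318), was at 0.760 and 1.28 CPM after light, at 10.4 and 13.7 CPM with minocycline and at 0.782 and 0.141 CPM in the controls (log2 fold change 3.55, SE 0.38, adjusted p = 0.0458). Other genes of surface epithelium were high in the same libraries and are described with them below.

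For the 6 genes that fell, the ratio of light-exposed replicate 2 to replicate 1 was between 0.647 for Lcn2 and 1.31 for Pros1, without a common direction. Minocycline B was 0.561 times A for Kif4, and light-exposed replicate 2 was 2.44 times replicate 1 for Dsp and 1.69 times for Calml3. Leaving out minocycline B took Lcn2 to an adjusted p of 0.104, Pros1 to 0.0667, Timp1 to 0.0646 and Calml3 to 0.0626. Leaving out light-exposed replicate 2 took Kif4 to 0.0773. The genes just outside the threshold were Mmp12, Chi3l1 and Hkdc1, each with an adjusted p of 0.0515. Mmp12, the macrophage elastase, had 2.98 and 3.47 CPM after light, no counts in the controls and 2 and 3 counts with minocycline, at least 22.3-fold lower when the limit of 3 counts per library is used. Chi3l1, a chitinase-like protein secreted by reactive glia and macrophages, was at 55.5 and 48.1 CPM after light and at 14.0 and 8.64 CPM with minocycline. Hkdc1, a putative hexokinase, was at 23.03 and 26.2 CPM after light and at 6.92 and 7.84 CPM with minocycline.

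**Figure D2:**
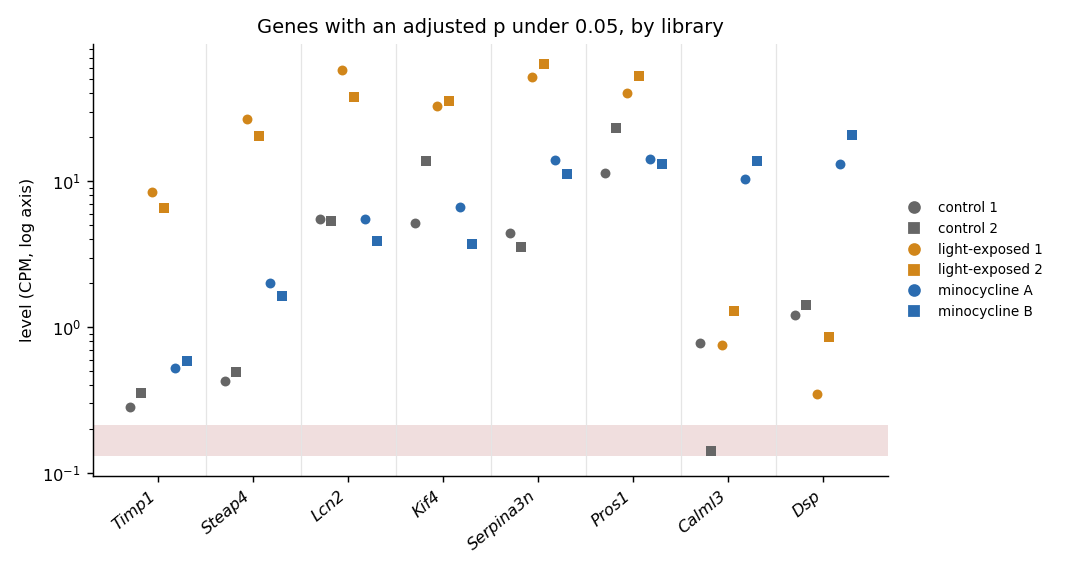
CPM on a log axis in each of the 6 libraries for the 8 genes with an adjusted p under 0.05; circles are replicate 1 or minocycline A, squares replicate 2 or minocycline B, and the pink band spans the level of 3 counts in the 6 libraries. For Timp1, Steap4, Lcn2, Kif4, Serpina3n and Pros1 both light-exposed libraries lie above the other 4, and for Calml3 and Dsp both minocycline libraries do.

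Several of the genes that fell are textbook targets of the cytokine-activated factor STAT3, of NF-kB or of AP-1, so the sequences before their start sites were examined for the letters of these motifs. Sequences of 250 bases before the annotated start came from RefSeq (GRCm38.p6), whose table held 7 of the 8 genes. The windows of Steap4 (chr5:7960222-7960471, plus strand), Pros1 (chr16:62854057-62854306, plus strand), Lcn2 (chr2:32387740-32387989, minus strand) and Timp1 (chrX:20869916-20870165, plus strand) are shown as the windows with a motif match and, from the genes that fell, a pair without one, a choice made after the search. Capitals mark a match to the STAT motif, in the orientation of the gene, 5′ to 3′.
Steap4: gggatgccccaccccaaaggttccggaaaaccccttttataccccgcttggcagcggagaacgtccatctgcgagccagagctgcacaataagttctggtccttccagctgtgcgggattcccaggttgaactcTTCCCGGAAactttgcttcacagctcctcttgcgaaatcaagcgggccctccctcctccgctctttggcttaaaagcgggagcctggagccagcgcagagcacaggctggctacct
Pros1: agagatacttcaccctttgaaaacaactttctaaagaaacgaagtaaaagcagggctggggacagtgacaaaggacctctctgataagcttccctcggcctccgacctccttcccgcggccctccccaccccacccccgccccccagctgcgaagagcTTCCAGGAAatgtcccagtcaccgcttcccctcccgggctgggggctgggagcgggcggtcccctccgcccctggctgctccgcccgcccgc
Lcn2: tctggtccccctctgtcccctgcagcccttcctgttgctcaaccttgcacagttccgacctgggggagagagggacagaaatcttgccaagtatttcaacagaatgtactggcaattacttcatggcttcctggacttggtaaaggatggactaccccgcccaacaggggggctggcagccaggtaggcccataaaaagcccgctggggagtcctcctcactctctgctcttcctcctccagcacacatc
Timp1: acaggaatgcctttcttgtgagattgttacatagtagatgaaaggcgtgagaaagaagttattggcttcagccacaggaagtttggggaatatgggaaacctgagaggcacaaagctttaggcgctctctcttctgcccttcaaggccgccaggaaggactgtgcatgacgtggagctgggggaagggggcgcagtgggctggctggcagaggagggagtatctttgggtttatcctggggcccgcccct
TTCNNNGAA, the STAT motif, which reads the same on both strands, was present in Steap4 as TTCCCGGAA from -116 to -108 and in Pros1 as TTCCAGGAA from -92 to -84, counted back from the start site. None of the 7 windows held GGGANTTCC for NF-kB, TGANTCA for AP-1 or the letters of the interferon-stimulated response element (2 GAAA repeats spaced by 2 bases) on either strand. Among 27025 promoter windows of this length, 7.18% held the STAT letters, 1.42% those for NF-kB, 6.87% those for AP-1 and 3.04% those for the interferon-stimulated response element. A match of letters is a description of the sequence and not a binding site.

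Steap4, Lcn2, Serpina3n and Timp1 are members of a list of gliosis and acute phase genes. Of 15 genes in this list, 13 were tested, and in 12 both minocycline libraries lay below both light-exposed libraries, compared with 28.8% of all genes tested (and 26% with both above). The adjusted p was under 0.1 for 9 of the 13, all lower with minocycline. The median log2 fold change of the list was -1.77, and that of all genes tested was 0.0062. Without the 4 genes that fell, 8 of 9 lay lower without overlap, 5 of 9 had an adjusted p under 0.1 and the median was -1.08. The lists were chosen with earlier results of these data known, so these counts are not independent of the data. Since whole retinas were sequenced, fewer cells of a type and less RNA per cell cannot be told apart here or in any result below.

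Gfap, the intermediate filament of reactive astrocytes and Müller cells, had 65.5 and 105 CPM after light and 24.4 and 17.7 CPM with minocycline. The controls had 16.8 and 25.6 CPM, the same range as with minocycline (log2 fold change -2.001, SE 0.27, adjusted p = 0.0691). Cp, the ferroxidase ceruloplasmin, went from 351 and 520 CPM after light to 157 and 95.8 CPM with minocycline, next to 107 and 114 CPM in the controls. Osmr, the receptor subunit for oncostatin M, was at 25.9 and 41.7 CPM after light and at 10.3 and 6.73 CPM with minocycline. C4b was the member whose groups overlapped, with 24.1 and 38.1 CPM after light and 14.0 and 28.3 CPM with minocycline.

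The signals that pass between injured photoreceptors and Müller cells include endothelin 2 and the cytokines of the interleukin 6 family. In 8 of 11 tested genes of this list both minocycline libraries were below both light-exposed ones, with a median of -1.07 (-0.69 without light-exposed replicate 2), and in 0 above. Lif, the leukemia inhibitory factor made by Müller cells after photoreceptor injury, was at 5.49 and 9.93 CPM after light, at 1.70 and 2.01 CPM with minocycline and at 3.06 and 2.89 CPM in the controls. Bcl3, an atypical IkB protein, was at 5.43 and 5.08 CPM after light and at 0.958 and 0.530 CPM with minocycline (log2 fold change -2.78, SE 0.41, adjusted p = 0.0691). Edn2 was at 43.7 and 31.6 CPM after light and at 18.0 and 16.5 CPM with minocycline, but its controls were 9.39 and 31.0 CPM, as far apart as the groups. Stat3 itself had 181 and 193 CPM after light and 116 and 110 CPM with minocycline, whereas the shared receptor Il6st was at 98.6 to 107 CPM in all 4 libraries.

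Activated microglia and phagocytes express scavenger receptors, lysosomal proteins and lipid-binding proteins with which they clear debris. All 19 genes of the list for activated microglia and phagocytes were tested, 17 had both minocycline libraries below both light-exposed libraries, and the median log2 fold change was -3.58. An adjusted p under 0.1 was reached by 11 of the 19. The summed level of the list was 1452 and 4713 CPM in light-exposed replicates 1 and 2, 596 and 771 CPM in minocycline A and B, and 305 and 265 CPM in the controls. Light-exposed replicate 2 exceeded replicate 1 in 19 of 19 genes, so that the median without replicate 2 was -2.36 and that without replicate 1 was -4.21. Both values keep the direction, and the size rests on which light-exposed library is used.

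Msr1, the class A scavenger receptor of macrophages, had 16.1 and 52.7 CPM after light, 0.348 and 0.106 CPM with minocycline and 0.142 and 0.0704 CPM in the controls (log2 fold change -7.13, SE 0.89, adjusted p = 0.0698). It had the lowest fitted fold change among genes not at the detection limit that averaged at least 5 CPM in the higher group. Cd68, a lysosomal glycoprotein of phagocytes, was at 32.6 and 108 CPM after light, at 2.79 and 3.66 CPM with minocycline and at 2.28 and 3.10 CPM in the controls. Wfdc17, also called activated microglia/macrophage WAP domain protein, was at 2.40 and 7.51 CPM after light and under 3 counts' worth in the other libraries apart from 3 counts in minocycline B. This was at least 34.2-fold lower with minocycline, or 16.5-fold when only light-exposed replicate 1 is used and 51.8-fold when only replicate 2 is used. Spp1, osteopontin, a secreted phosphoprotein of phagocytes, had 367 and 1669 CPM after light, 14.2 and 20.9 CPM with minocycline, and 4.62 and 4.58 CPM in the controls.

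Tspo, the mitochondrial translocator protein used as an imaging marker of reactive microglia, differed less, with 11.2 and 23.2 CPM after light and 5.88 and 9.33 CPM with minocycline (log2 fold change -1.16, SE 0.41, adjusted p = 0.184). The groups overlapped for Gpnmb and Lpl. Gpnmb, a glycoprotein of phagocytes and also of pigment cells, had 136 and 588 CPM after light and 57.0 and 284 CPM with minocycline, so the libraries within a group lay further apart than the groups. Lpl, lipoprotein lipase, had 13.1 and 21.9 CPM after light and 16.5 and 29.05 CPM with minocycline.

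The other genes with the largest fold changes in this direction, by the rule that named Msr1 and Spp1, were the following 8. Gp49a and Lilrb4 encode paired immunoglobulin-like receptors of myeloid cells. Lilrb4 was at 6.66 and 22.3 CPM after light and at 0.305 and 0.212 CPM with minocycline, and Gp49a was at least 51.0-fold lower with minocycline. Since the receptors are close paralogs, short reads may be divided between them. The sialic acid-binding lectins Siglec1 (5.08 and 26.5 CPM after light, 0.261 and 0.212 CPM with minocycline) and Cd22 (3.33 and 10.9 CPM, 0.174 and 0 CPM) behaved likewise. So did Cd180, a relative of the Toll-like receptors (5.08 and 18.4 CPM, 0.392 and 0 CPM), and Ms4a6d, a tetraspanning membrane protein of macrophages (10.9 and 40.8 CPM, 0.479 and 0.318 CPM). Hal, histidine ammonia-lyase, was at least 59.6-fold lower with minocycline and 1300002K09Rik at least 39.0-fold. Against light-exposed replicate 1 alone these bounds were 15.3-fold for Gp49a, 26.6-fold for Hal and 14.9-fold for 1300002K09Rik. In these 8 genes light-exposed replicate 2 was 3.27 to 5.65 times replicate 1.

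Markers of resident microglia that are kept in the unchallenged state were lower as well. Of 13 genes, 11 had both minocycline libraries below both light-exposed libraries, 7 had an adjusted p under 0.1, and the median was -2.83 (-1.92 without light-exposed replicate 2). The summed level was 250 and 732 CPM after light, 89.7 and 49.4 CPM with minocycline and 55.7 and 52.8 CPM in the controls. P2ry12, the purinergic receptor of ramified microglia, was at 7.83 and 15.5 CPM after light and at 5.97 and 3.34 CPM with minocycline. Cx3cr1, the fractalkine receptor, was at 19.3 and 51.3 CPM after light and at 4.22 and 1.70 CPM with minocycline, and Aif1, which encodes Iba1, at 4.15 and 10.7 CPM and at 1.26 and 0.795 CPM (log2 fold change -2.83, SE 0.54, adjusted p = 0.0709). The groups overlapped for Siglech, with 1.23 and 1.71 CPM after light and 2.22 and 1.01 CPM with minocycline, and for Tmem119, with 3.27 and 9.79 CPM and 3.44 and 1.27 CPM. Minocycline A was above minocycline B in 12 of the 13 genes.

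Transcripts of blood leukocytes were sparse. Of 13 markers of monocytes and neutrophils, 2 passed the filter, Lyz2 and Ccr2. Lyz2, the lysozyme of macrophages and also of microglia, was at 147 and 554 CPM after light, at 9.32 and 3.76 CPM with minocycline and at 1.99 and 4.23 CPM in the controls. Ccr2, the chemokine receptor of inflammatory monocytes, was at 0.584 and 0.570 CPM after light and at 1 and 0 counts with minocycline, at least 3.99-fold lower. The defining neutrophil transcripts Elane and Camp were at 0 in all libraries. Of 12 lymphocyte markers, 1 passed the filter, and Cd3e and Ms4a1 were at 0 throughout.

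Within the complement system, 16 of 18 genes were tested, of which 11 had both minocycline libraries below both light-exposed ones and 1 above, with a median of -1.49. The initiating subunits encoded by C1qa, C1qb and C1qc, which come from microglia, had 73.2 and 250 CPM, 58.6 and 188 CPM, and 55.6 and 169 CPM after light. The corresponding levels with minocycline were 18.1 and 6.15 CPM, 12.1 and 4.03 CPM, and 11.0 and 3.55 CPM. C3, the central component, was at 18.5 and 34.02 CPM after light, at 2.31 and 0.530 CPM with minocycline and at 1.35 and 0.916 CPM in the controls (log2 fold change -4.16, SE 0.65, adjusted p = 0.0698). Its receptor C3ar1 was at 12.8 and 55.1 CPM after light and at 0.871 and 0.371 CPM with minocycline. Of the inhibitors, Serping1 was at 17.4 and 24.7 CPM after light and at 5.53 and 7.58 CPM with minocycline, whereas the membrane inhibitor Cd59a was at 33.9 to 39.2 CPM in all 4 libraries. C2 was the member that lay higher, at 4.70 and 24.1 CPM with minocycline against 1.40 and 2.23 CPM after light.

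Fc receptors and their signalling chain lay lower throughout, with 13 of 13 genes lower in both minocycline libraries. All 13 had an adjusted p under 0.1, and the median was -3.79 (-2.60 without light-exposed replicate 2). Fcer1g, the shared gamma chain, had 13.9 and 39.9 CPM after light, 2.18 and 1.22 CPM with minocycline and 1.14 and 1.06 CPM in the controls. The kinases downstream behaved like the receptors: Syk was at 4.50 and 13.9 CPM after light and at 0.827 and 0.318 CPM with minocycline, and Btk at 2.10 and 6.65 CPM and at 0.348 and 0.159 CPM. Ptpn6 and Inpp5d, the phosphatases that restrain this pathway, were lower too, Inpp5d at 16.0 and 39.0 CPM after light and at 8.01 and 6.84 CPM with minocycline.

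Pattern recognition receptors followed, with 14 of 14 tested genes lower in both minocycline libraries and a median of -2.41 (-1.72 without light-exposed replicate 2). Tlr7 and Tlr13, endosomal sensors of single-stranded RNA and of bacterial ribosomal RNA, were at 7.89 and 29.5 CPM and at 5.96 and 21.8 CPM after light. With minocycline they were at 1.22 and 0.318 CPM and at 0.523 and 0.424 CPM. Casp1, the protease of the inflammasome, was at 1.69 and 3.66 CPM after light and at 0.261 and 0.106 CPM with minocycline. The adaptor Myd88 differed little, with 7.83 and 11.1 CPM after light and 6.05 and 7.42 CPM with minocycline. The catalytic subunit of the phagocyte oxidase, Cybb, had 6.02 and 22.1 CPM after light and 0.610 and 0.424 CPM with minocycline, and all 6 oxidase genes lay lower (median -3.04, or -2.10 without light-exposed replicate 2).

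Of 25 cytokine, chemokine and receptor genes, 10 did not pass the filter on low counts, among them Il6, Nos2, Tnf, Il1b and Il10. Il6 had 4 and 10 counts after light and 3 and 4 with minocycline, and Nos2 had 6 and 8 counts and 2 and 3 counts, so both lay lower without overlap in CPM but were not tested. Nos2 was at least 2.52-fold lower by the limit of 3 counts. All 15 tested genes had a negative log2 fold change, and in 13 the groups did not overlap. The median was -1.32, or -0.86 without light-exposed replicate 2 and -2.17 without minocycline B. Genes with few counts with minocycline could pass the filter only through the light-exposed libraries, so their direction was set in part by that filter. Ccl2, the monocyte chemoattractant, was at 1.58 and 2.80 CPM after light and at 0.566 and 1.22 CPM with minocycline (log2 fold change -1.29, SE 0.53, adjusted p = 0.218). Ccl3 had 0.701 and 1.47 CPM after light and no counts with minocycline, at least 7.51-fold lower, and Ccl5 was at least 8.86-fold lower. Against light-exposed replicate 1 alone the bounds were 4.84-fold and 5.25-fold. The chemokine receptor Cxcr4 was at 6.90 and 23.4 CPM after light and 1.00 and 0.424 CPM with minocycline.

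Interferon-stimulated genes encode antiviral proteins and their regulators. Of 21 tested genes, 17 had both minocycline libraries below both light-exposed ones, 5 had an adjusted p under 0.1, and the median was -1.47, or -0.97 without light-exposed replicate 2 and -2.22 without replicate 1. Irf7, the regulator that amplifies interferon production, was at 39.3 and 64.3 CPM after light, at 17.8 and 19.2 CPM with minocycline and at 21.97 and 22.6 CPM in the controls. Oasl2 was at 12.4 and 29.5 CPM after light and at 2.39 and 3.23 CPM with minocycline. Isg15, a ubiquitin-like modifier, had 2.05 and 10.2 CPM after light and 0.958 and 2.44 CPM with minocycline, so its groups overlapped. Minocycline B was above minocycline A in 18 of the 21 genes. This was so for 1 of 13 genes of resident microglia and 9 of 19 of activated microglia and phagocytes. Whether the lists differ in this was not tested.

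Antigen presentation by MHC class I was lower throughout, with 11 of 11 tested genes below, 9 with an adjusted p under 0.1 and a median of -2.12 (-1.33 without light-exposed replicate 2). B2m, the invariant light chain, was at 93.3 and 234 CPM after light, at 32.9 and 41.3 CPM with minocycline and at 17.8 and 12.9 CPM in the controls. The transporter Tap1 was at 13.6 and 16.0 CPM after light and at 3.88 and 2.70 CPM with minocycline, and the transactivator Nlrc5 at 5.20 and 11.7 CPM and at 0.610 and 0.742 CPM. For both, the minocycline libraries lay within or near the control range of 3.20 to 3.66 CPM and 0.569 to 1.34 CPM. Class II genes were sparse: 5 of 7 were tested and all 5 lay lower, none with an adjusted p under 0.1. H2-Ab1 was at 6.19 and 7.13 CPM after light and at 3.70 and 2.28 CPM with minocycline. Reads of the H2 genes may be divided among close paralogs.

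Lysosomal enzymes digest what phagocytes and glia take up. All 20 genes were tested, 19 had no overlap between the groups, 9 had an adjusted p under 0.1, and the median of -1.79 became -0.93 without light-exposed replicate 2. Ctsd, the aspartic protease cathepsin D, had the largest difference in level of the genes that were lower with minocycline, at 1466 and 4696 CPM after light, 399 and 330 CPM with minocycline and 310 and 255 CPM in the controls. Ctsb, cathepsin B, was at 714 and 1953 CPM after light and at 394 and 387 CPM with minocycline, and Psap, the precursor of the saposins, at 681 and 1197 CPM and at 616 and 474 CPM. Ctse, an endosomal cathepsin, was at 4.09 and 12.1 CPM after light and at 0.174 and 0.159 CPM with minocycline, the lowest fold change of the list (log2 fold change -5.53, SE 0.71, adjusted p = 0.0691). Lamp1, a structural lysosomal membrane protein, overlapped, with 237 and 376 CPM after light and 260 and 251 CPM with minocycline. Mpeg1, the pore-forming perforin 2 of phagolysosomes, was at 126 and 480 CPM after light and at 11.1 and 3.39 CPM with minocycline.

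Genes of lipid handling, of the extracellular proteases and of metal binding gave medians of -1.19, -1.24 and -1.04. Without light-exposed replicate 2 these were -0.41, -0.84 and -0.59, and the protease median was -1.84 without replicate 1. Apoe, the major apolipoprotein of glia, was at 610 and 1505 CPM after light and at 386 and 327 CPM with minocycline. Plin2, the coat protein of lipid droplets, was at 26.4 and 78.0 CPM after light, at 4.75 and 5.72 CPM with minocycline and at 4.05 and 3.52 CPM in the controls. Abca1, the cholesterol exporter, was at 199.7 and 289 CPM after light and at 79.2 and 78.3 CPM with minocycline, with close replicates (log2 fold change -1.62, SE 0.20, adjusted p = 0.0638). Timp2 lay lower, at 93.7 and 209 CPM after light and 61.3 and 55.0 CPM with minocycline, and Timp3 higher, at 72.1 and 110 CPM and at 121 and 267 CPM. Mt2, a metallothionein that binds zinc and copper, was at 199.7 and 338 CPM after light, 70.4 and 80.6 CPM with minocycline and 41.5 and 42.4 CPM in the controls.

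**Figure D3:**
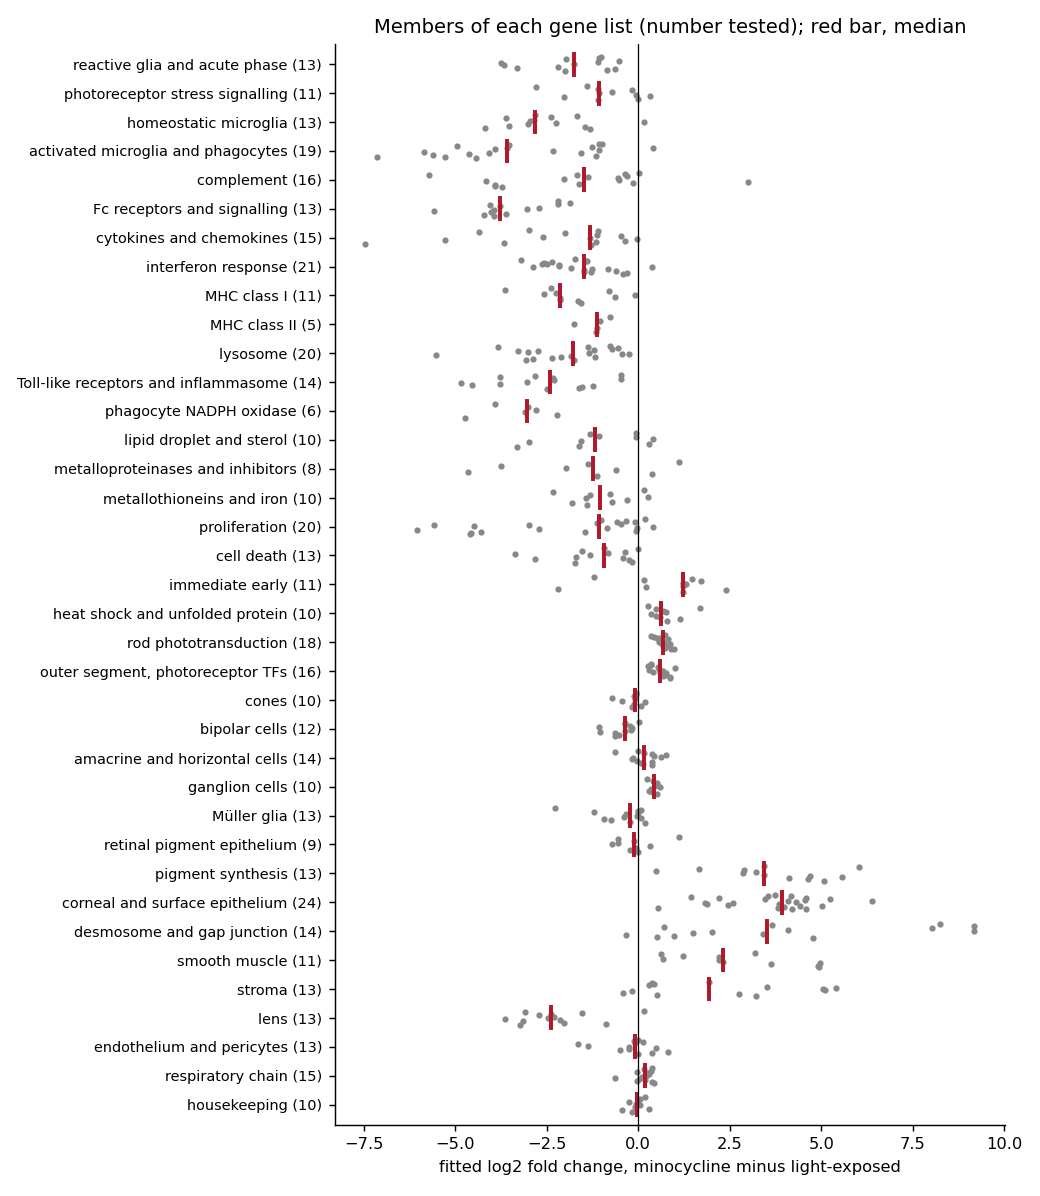
Fitted log2 fold change of minocycline minus light-exposed libraries (horizontal axis) for each tested member of the gene lists with at least 5 tested members; the number tested stands in brackets and the red bar is the median. Lists of glia, microglia and immune pathways lie left of 0, rods lie slightly right of it, and lists of pigment, surface epithelium, desmosomes, smooth muscle and stroma lie furthest to the right.

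A common feature of these lists was the distance between the light-exposed replicates. Of 361 genes that were at least 4 times lower with minocycline, without overlap and at an unadjusted p under 0.05, light-exposed replicate 2 exceeded replicate 1 in 343 (95%), with a median ratio of 2.90. Over all genes tested the corresponding share was 50.5% and the median ratio 1.00. In the 11 lists of microglia, complement, Fc receptors, cytokines, interferon, MHC, lysosome, pattern recognition and the phagocyte oxidase, 151 different genes were tested, and light-exposed replicate 2 was above replicate 1 in 145. The same 11 lists held 81 of the genes at least 4 times lower and 1 at least 4 times higher. Steap4, Lcn2 and Timp1 were not part of this pattern, with replicate 2 at 0.647 to 0.774 times replicate 1. Without light-exposed replicate 1, edgeR called 406 genes lower, and without replicate 2 it called 24.

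**Figure D4:**
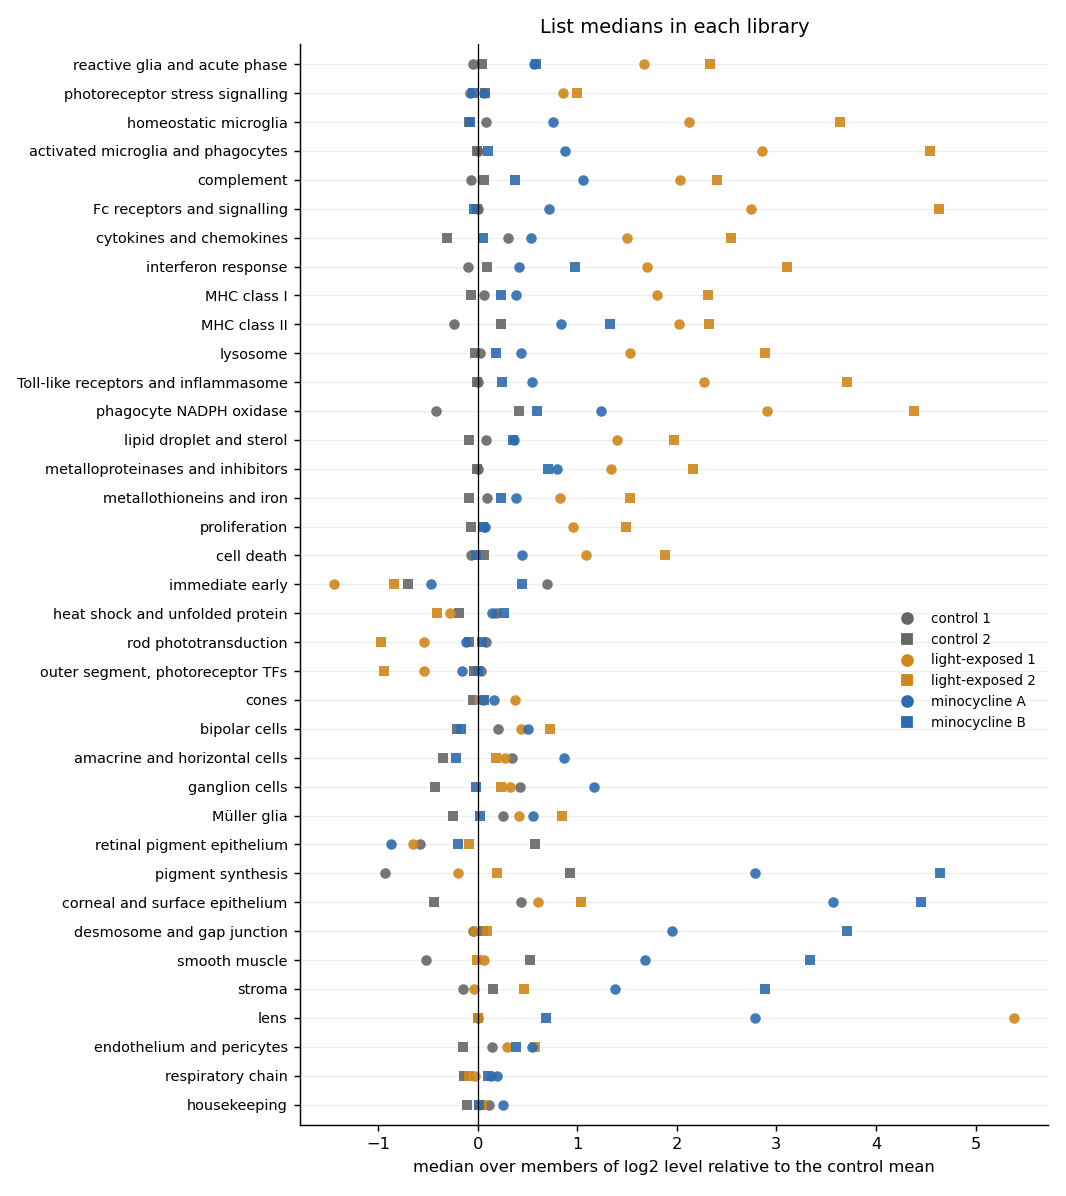
Median over the members of each list of the log2 level relative to the mean of the controls (horizontal axis), for each of the 6 libraries; circles are replicate 1 or minocycline A, squares replicate 2 or minocycline B. For the list of activated microglia the light-exposed libraries sit at 2.85 and 4.55 and the minocycline libraries at 0.87 and 0.10, whereas for pigment synthesis the minocycline libraries sit at 2.79 and 4.65.

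Proliferation genes were divided. Of 20 tested genes, 13 were lower in both minocycline libraries and 2 higher, next to 28.8% and 26% of all genes tested. The adjusted p was under 0.1 for 7, and the median was -1.08. Mki67, the Ki-67 antigen of cycling cells, was at 6.43 and 18.1 CPM after light, at 0.523 and 0.477 CPM with minocycline and at 0.356 and 0.141 CPM in the controls (log2 fold change -4.58, SE 0.60, adjusted p = 0.0691). Top2a, topoisomerase II alpha, was at 3.56 and 9.31 CPM after light and at 0.218 and 0.318 CPM with minocycline. The ribonucleotide reductase subunit Rrm2 was at least 13.7-fold lower and the mitotic kinase Pbk at least 9.87-fold lower, or 8.07-fold and 7.26-fold against light-exposed replicate 1 alone. In contrast, Pcna and Mcm2, which also serve DNA repair and are present in resting tissue, were at 26.6 to 31.6 CPM and at 16.3 to 19.0 CPM in all 4 libraries. Kif4, which fell, was high in control replicate 2 at 13.7 CPM, where Mki67 was at 0.141 CPM.

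Genes of cell death had a median of -0.92, or -0.44 without light-exposed replicate 2 and -1.64 without replicate 1. In 9 of 13 tested genes both minocycline libraries were lower, next to 28.8% of all genes tested. Casp8, the initiator caspase of the extrinsic pathway, was at 2.34 and 5.80 CPM after light and at 1.13 and 1.33 CPM with minocycline (log2 fold change -1.71, SE 0.51, adjusted p = 0.126). The tumour necrosis factor receptor Tnfrsf1b, a receptor of immune cells, was at 7.71 and 24.5 CPM after light and at 1.57 and 1.54 CPM with minocycline, and Tnfrsf1a, the broadly expressed one, at 13.6 and 22.8 CPM and at 7.62 and 6.89 CPM.

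Rod photoreceptor transcripts were higher with minocycline, by modest amounts and with complete uniformity. All 18 phototransduction genes had both minocycline libraries above both light-exposed libraries, next to 26% of all genes tested. Their log2 fold changes were between 0.34 and 0.97, with a median of 0.68. An adjusted p under 0.1 was reached by Guca1b alone, a guanylate cyclase activator, at 0.0983. Gnat1, rod transducin, had 11247 and 7761 CPM in the light-exposed libraries, 17742 and 19113 CPM with minocycline, and 20725 and 14698 CPM in the controls (log2 fold change 0.97, SE 0.31, adjusted p = 0.14). The minocycline libraries were thus inside the control range. The other subunits of transducin, Gnb1 and Gngt1, were at 5963 and 4294 CPM and at 3408 and 2544 CPM after light, and at 8069 and 8865 CPM and 4203 and 5549 CPM with minocycline. Pde6b, a catalytic subunit of the rod phosphodiesterase, was at 2905 and 2148 CPM after light and at 4081 and 4619 CPM with minocycline. Light-exposed replicate 2 was below replicate 1 in 18 of 18 genes, and the median was 0.47 without it and 0.90 without replicate 1. With total library size in place of TMM the rod median was 0.51 and that of all genes -0.17. It was also the library with more of the activated microglial transcripts, 4713 CPM against 1452 CPM in sum, and their part in the rod levels was not tested.

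Structural proteins of the outer segment and photoreceptor transcription factors gave the same picture, 16 of 16 above and a median of 0.61. Prph2, the tetraspanin of the disc rim, was at 4738 and 3397 CPM after light and at 6966 and 7771 CPM with minocycline, and its partner Rom1 at 2207 and 1683 CPM and at 3277 and 3710 CPM. Nrl, the transcription factor that specifies rods, was at 1793 and 1425 CPM after light, at 2962 and 3426 CPM with minocycline and at 3423 and 2856 CPM in the controls (log2 fold change 1.01, SE 0.23, adjusted p = 0.0844). Rbp3, a secreted retinoid-binding protein of photoreceptors outside the lists, was at 4206 and 2961 CPM after light and at 5738 and 5468 CPM with minocycline.

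Of 10 cone genes, 0 lay above in both minocycline libraries and 3 lay below, next to 26% and 28.8% of all genes tested, and the median was -0.09 (0.06 without light-exposed replicate 1 and -0.23 without replicate 2). The cone opsin Opn1sw was at 815 and 552 CPM after light, at 628 and 578 CPM with minocycline and at 597 and 524 CPM in the controls. Pde6c, the cone phosphodiesterase, was at 58.7 and 56.7 CPM after light and at 32.0 and 37.6 CPM with minocycline (log2 fold change -0.71, SE 0.14, adjusted p = 0.0709). Whether the rod and cone lists differ in their response was not tested.

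The inner retina relays and integrates the photoreceptor signal. For bipolar cells the median was -0.36 with 5 of 12 genes below, for amacrine and horizontal cells 0.15 with 1 of 14 below, and for ganglion cells 0.43 with 2 of 10 above. Over all genes tested 28.8% lay below and 26% above in this way. All 3 medians depend on 1 minocycline library. The bipolar median was -0.07 without minocycline B and -0.71 without A. For the other lists the sign rests on minocycline A, in which 13 of the 14 amacrine and horizontal cell genes and 10 of 10 ganglion cell genes exceeded minocycline B. Without minocycline A their medians were -0.34 and -0.32, and with total library size in place of TMM the amacrine median was -0.01. Trpm1, the channel of ON bipolar cells and also a melanocyte gene, was at 483 and 744 CPM after light, at 268 and 318 CPM with minocycline and at 252 and 314 CPM in the controls. Meg3, a long non-coding RNA of neurons, was at 1108 and 1654 CPM after light, at 742 and 711 CPM with minocycline and at 848 and 1281 CPM in the controls.

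Homeostatic Müller cell genes had a median of -0.23, with 5 of 13 below, next to 28.8% of all genes tested, and 3 at an adjusted p under 0.1. Leaving out 1 library moved this median between -0.40 without minocycline A and -0.07 without minocycline B, and it was -0.09 without light-exposed replicate 2. Crym, a thyroid hormone-binding protein, was at 114 and 179 CPM after light and at 34.1 and 26.03 CPM with minocycline, with 36.3 and 28.4 CPM in the controls (log2 fold change -2.27, SE 0.25, adjusted p = 0.0638). Aqp4, the water channel of the Müller cell endfeet, was at 183 and 235 CPM after light and at 125 and 91.1 CPM with minocycline. Glul, glutamine synthetase, was at 1365 to 1734 CPM in all 4 libraries, and its groups overlapped. Minocycline A was above minocycline B in 13 of 13 genes.

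Stress genes of other kinds lay higher. All 10 genes of the heat shock and unfolded protein responses were above in both minocycline libraries, with a median of 0.63 and 3 at an adjusted p under 0.1. Trib3, a pseudokinase induced by ATF4, was at 8.47 and 6.89 CPM after light, at 17.4 and 31.0 CPM with minocycline and at 21.0 and 24.3 CPM in the controls (log2 fold change 1.68, SE 0.31, adjusted p = 0.0709). Atf4 itself was at 293 and 276 CPM after light, 415 and 483 CPM with minocycline and 446 and 366 CPM in the controls, and Ddit3, which encodes CHOP, at 34.01 and 33.3 CPM, 54.8 and 58.5 CPM, and 57.8 and 43.2 CPM. For these 3 genes the minocycline libraries were near the controls and the light-exposed libraries were the low ones.

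Immediate early genes had a median of 1.23, with 7 of 11 above and 1 below, next to 26% and 28.8% of all genes tested. However, the libraries within a group were far apart. Fos was at 35.1 and 90.7 CPM after light, at 101 and 190 CPM with minocycline and at 360 and 104 CPM in the controls. Minocycline B was above A in 11 of 11 genes, and the median was 0.58 without minocycline B and 0.75 without light-exposed replicate 1. Dusp1, a phosphatase that acts on MAP kinases, was the member with an adjusted p under 0.1 that lay higher, at 17.5 and 27.7 CPM after light and 53.1 and 71.0 CPM with minocycline (log2 fold change 1.47, SE 0.26, adjusted p = 0.0698). Fosl1, a Fos-related subunit of AP-1, lay lower, at 1.69 and 3.90 CPM after light and at 0.435 and 0.795 CPM with minocycline (log2 fold change -2.18, SE 0.57, adjusted p = 0.0995). For Fos the controls were further apart than the groups compared.

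Genes of the respiratory chain and housekeeping genes had medians of 0.19 and -0.04. Atp5b, the beta subunit of the mitochondrial ATP synthase, was at 797 and 687 CPM after light, at 1028 and 931 CPM with minocycline and at 919 and 725 CPM in the controls (log2 fold change 0.42, SE 0.18, adjusted p = 0.246). Gapdh had 4.22 to 6.25 CPM in the 4 libraries, and its reads may be divided among its many processed pseudogenes.

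The largest differences in the other direction belonged to transcripts that the neural retina does not normally express. The list of corneal and surface epithelium, to which Calml3 belongs, had 24 of 30 genes tested. In 24 of 24 both minocycline libraries lay above both light-exposed libraries, with 22 at an adjusted p under 0.1. The median was 3.92 (3.30 without minocycline B). Members with few counts after light could pass the filter on low counts only through the minocycline libraries, so their direction was set in part by that filter. The same applies to the lists of desmosomes, pigment, smooth muscle and stroma below. The summed level of the list was 17.6 and 32.0 CPM after light, 259 and 389 CPM with minocycline, and 18.6 and 7.26 CPM in the controls. Krt12, the keratin of the corneal epithelium, was at 2.51 and 6.08 CPM after light, at 78.3 and 127 CPM with minocycline and at 2.56 and 0.423 CPM in the controls (log2 fold change 4.57, SE 0.48, adjusted p = 0.0691). Krt5, a keratin of basal epithelial cells, was at 1.87 and 4.75 CPM after light and at 51.1 and 72.1 CPM with minocycline. Aldh3a1, the crystallin-like dehydrogenase of the cornea, was at 0.935 and 3.14 CPM after light and at 45.2 and 44.0 CPM with minocycline. Slurp1 and Lypd3, also of surface epithelium, were at 3 counts or fewer in both light-exposed libraries and at least 20.01- and 16.9-fold higher with minocycline, or 12.3- and 11.8-fold with minocycline A alone. Ly6d was at 0 counts in all 6 libraries, and Krt6a and Krt6b are close paralogs whose reads may be divided.

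The desmosome and gap junction list, to which Dsp belongs, had 13 of 14 genes above and a median of 3.53, or 3.25 with the 5 genes at the limit in the light-exposed libraries set to their bound. Its median was 2.13 without minocycline B and 4.38 without minocycline A. Evpl and Ppl, cytolinkers of the same complex as desmoplakin, were at 2.98 and 1.95 CPM and at 2.22 and 3.52 CPM after light, and at 6.14 and 13.6 CPM and 5.66 and 10.5 CPM with minocycline. Gja1, a connexin of gap junctions, was at 4.56 and 6.32 CPM after light and at 23.8 and 111 CPM with minocycline. Pkp2 lay lower, at 19.6 and 18.1 CPM after light and 15.2 and 14.5 CPM with minocycline.

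Pigment cell genes were higher in 13 of 13 cases, with a median of 3.43, which was 2.48 without minocycline B and 4.42 without light-exposed replicate 2. The mice of this study are albino strains, whose tyrosinase is inactive, but the transcripts of pigment cells are made. Pmel, which forms the fibrils of the melanosome, was at 2.57 and 6.08 CPM after light, at 72.1 and 341 CPM with minocycline and at 0.924 and 12.96 CPM in the controls (log2 fold change 5.57, SE 0.95, adjusted p = 0.0755). Tyrp1, an enzyme of melanin synthesis, was at 6.43 and 8.93 CPM after light and at 67.7 and 310 CPM with minocycline. Edn3, an endothelin that supports melanocytes, was at 0.351 and 0.285 CPM after light and at 6.01 and 35.6 CPM with minocycline. Of 9 tested visual cycle and other genes of the retinal pigment epithelium, 1 lay above without overlap and 3 below. The shares over all genes tested were 26% and 28.8%. Minocycline B exceeded A in 8 of the 9. Rpe65 was at 21.3 and 29.8 CPM after light, at 18.7 and 31.9 CPM with minocycline and at 19.6 and 68.1 CPM in the controls, and the median of that list was -0.10 (0.19 without minocycline A and -0.45 without B).

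Smooth muscle and stroma followed, with 10 of 11 and 7 of 13 tested genes above, next to 26% of all genes tested. Their medians were 2.31 and 1.93. Myh11, the smooth muscle myosin, was at 1.87 and 2.57 CPM after light and at 23.8 and 110 CPM with minocycline. Dcn, the proteoglycan decorin, was at 0.877 and 1.57 CPM after light and at 14.0 and 71.1 CPM with minocycline, and Fbln1, fibulin 1, at 0.468 and 0.380 CPM and at 7.36 and 28.0 CPM. Col1a1, collagen type I, was at 0.643 and 0.903 CPM after light and at 2.35 and 11.98 CPM with minocycline. The smooth muscle median was 3.43 without minocycline A and 1.80 without minocycline B. The stroma median was 0.64 without minocycline B and 2.72 without minocycline A, so it rests on minocycline B.

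The remaining genes with the largest fold changes in this direction were proline-rich proteins (Prb1 and Prpmp5), the potassium channel subunit Kcne4, the secreted inhibitor of Wnt signalling Wif1, the cartilage matrix protein Matn3 and the skeletal muscle myosin Myh4. Prb1 and Prpmp5 were at least 58.6-fold and 45.4-fold higher with minocycline, or 22.5-fold and 15.3-fold with minocycline A alone. Kcne4 was at 1.70 and 17.9 CPM in minocycline A and B, Wif1 at 1.18 and 12.7 CPM, Matn3 at 1.22 and 12.7 CPM and Myh4 at 1.09 and 16.9 CPM. All 4 were at 0.351 CPM or less after light, and minocycline B was 10.4 to 15.5 times A.

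As with the immune genes, the libraries of the higher group were apart, here the minocycline libraries. Of 139 genes at least 4 times higher with minocycline, without overlap and at an unadjusted p under 0.05, minocycline B exceeded A in 135 (97.1%), with a median ratio of 2.75, against 49.5% of all genes tested. The lists of pigment, surface epithelium, desmosomes, smooth muscle and stroma held 75 different tested genes, of which 54 were at least 4 times higher and 0 at least 4 times lower. Minocycline B was above A in 67 of the 75. In minocycline A the summed level of the stroma list, 148 CPM, was near the 141 CPM of light-exposed replicate 2. For Dsp and Calml3 B was 1.59 and 1.32 times A. The part that other tissues of the eye in the sample play in the levels of these genes was not tested.

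Lens transcripts marked a different library. Cryaa, alpha A-crystallin, was at 109 CPM in light-exposed replicate 1, at 0.0475 CPM in replicate 2, at 10.3 and 1.06 CPM with minocycline and at 0.0711 and 0.141 CPM in the controls. The summed level of the lens list was 302 and 93.7 CPM after light, 64.9 and 55.3 CPM with minocycline and 31.3 and 22.6 CPM in the controls. Its median of -2.37 became 3.15 without light-exposed replicate 1, so no direction can be given for it. Its members without overlap between the groups were Cryab and Crybb3, and Cryab is also a small heat shock protein of the retina. Vessel markers showed no common direction, with 3 of 13 tested genes of endothelium and pericytes below and 3 above, next to 28.8% and 26% of all genes tested, and a median of -0.09 (0.02 without light-exposed replicate 2). Vcam1, an adhesion molecule of activated vessels and glia, was at 22.8 and 51.5 CPM after light and at 11.4 and 11.9 CPM with minocycline.

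**Figure D5:**
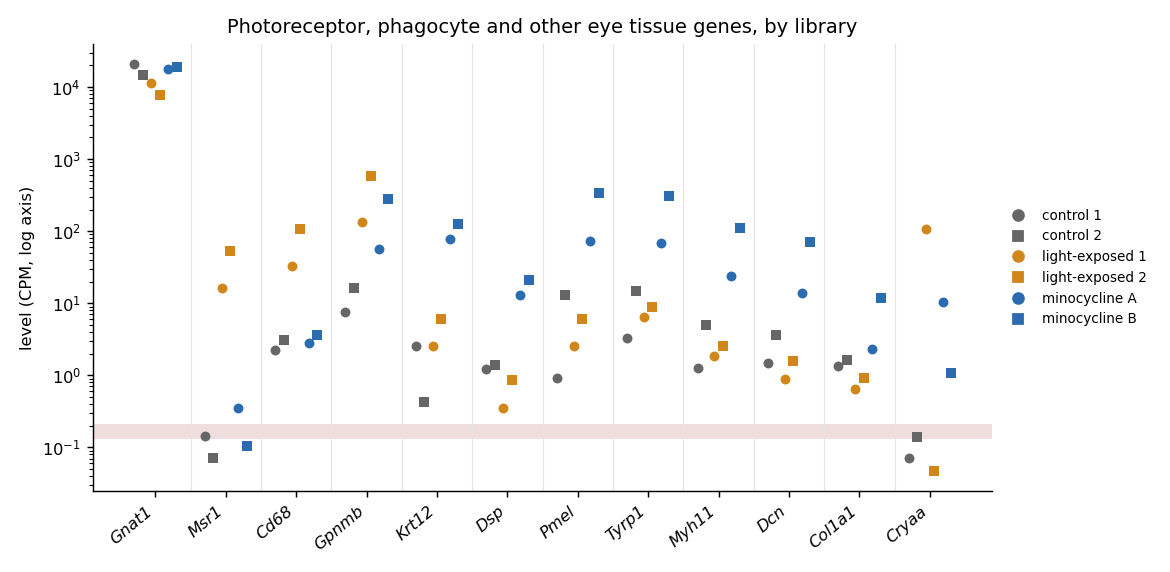
CPM on a log axis in each of the 6 libraries for 12 genes of rods, phagocytes, surface epithelium, pigment cells, smooth muscle, stroma and lens; circles are replicate 1 or minocycline A, squares replicate 2 or minocycline B, and the pink band spans the level of 3 counts. Krt12, Dsp, Pmel, Tyrp1, Myh11, Dcn and Col1a1 are highest in minocycline B and next in minocycline A, Msr1 and Cd68 are highest in light-exposed replicate 2, and Cryaa stands at 109 CPM in light-exposed replicate 1.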

How the data were processed

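RNA of whole mouse retinas was sequenced as stranded mRNA libraries with single reads. Per the submitters' processing notes and the study's methods, the authors aligned reads to mm10 with STAR and used DESeq2, without versions. The gene annotation and the use of strand in counting are not given in the sources used here. The deposited table holds counts per gene. The study calls them normalized, but the values are whole numbers with library totals that differ, and they were used as raw counts. All columns with values were used.

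Genes were kept with edgeR's filterByExpr and scaled by TMM, and edgeR's quasi-likelihood test with robust estimation was fitted to the 4 libraries (edgeR 4.0.16, limma 3.58.1, R 4.3.3), with Benjamini-Hochberg adjustment over all genes tested. Genes were called at adjusted p < 0.05 where the log2 fold change also reached 2 or -2. CPM was calculated over all 6 libraries. Folds against 3 counts or fewer per library are lower bounds at that limit. A gene near this limit in either group could pass the filter only through the other group, so its direction was set in part by the filter. Alternatives used DESeq2 1.42.0, other scaling, filters and libraries, and the procedure was tested on simulated data.

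The gene lists were chosen with earlier results of these data known. The genes named are those with an adjusted p under 0.05, the 10 largest fold changes in each direction with an unadjusted p under 0.05, no overlap and at least 5 CPM in the higher group, the 10 largest differences in CPM, genes the study stained or measured by PCR, and list members that describe a role. Some genes this rule names are not reported here. Mpeg1, Rbp3, Meg3 and Pros1 are in no list.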

Additional observations from a re-analysis of the deposited data

How the results depend on the processing

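No paired analysis was possible because both minocycline columns carry the same header and no replicate number. The test called 2 genes higher and 5 lower, and 8 had an adjusted p under 0.05. In that order the counts were 0, 2 and 2 with DESeq2 size factors in edgeR, where Steap4 (adjusted p = 0.0342) and Serpina3n (adjusted p = 0.0453) passed, and 0, 0 and 0 with total library size, where 2838 genes lay lower and 614 higher at an unadjusted p under 0.05. They were 72, 209 and 732 with no filter on counts, 1, 5 and 7 where each library had to hold 10 counts or more, where Dsp was not tested, and 106, 293 and 1197 with DESeq2 without shrinkage. They were 5, 22 and 1147 with shrinkage, 5, 9 and 15 in edgeR without robust estimation, 63, 218 and 488 with all 6 libraries in one fit, and 96, 285 and 882 at an adjusted p under 0.1. Leaving out 1 library, which assumes that the lone sample varies like the other group, gave 6 to 112 genes higher, 4 to 406 lower and 14 to 772 with an adjusted p under 0.05. The counts were 27, 406 and 772 without light-exposed replicate 1, 6, 24 and 33 without replicate 2, 112, 16 and 235 without minocycline A, and 8, 4 and 14 without minocycline B. The cause of these differences was not tested. Of the 56 genes followed, 0 changed sign in the alternatives that tested them, and 37 of the 56 were tested where each library had to hold 10 counts. Most of the 56 were chosen because their groups did not overlap. Their sign could therefore hardly change, and its constancy cannot be read as a result. With total library size the median of all genes was -0.17. Of the genes at an unadjusted p under 0.05, 42.8% lay higher with TMM and 17.8% with total library size, or 31.3% without light-exposed replicate 1. The sign of a list median changed for 1 of 39 lists with total library size, 2 without light-exposed replicate 1, 3 without replicate 2 and 3 without minocycline A. Sizes moved more often. The median stayed within the spread between libraries of a group for 17 of 39 lists with DESeq2 shrinkage. Where each library had to hold 10 counts, it did so for 30 of 38. For activated microglia and phagocytes the median was -3.58 in the main fit and -0.89 with shrinkage. With 2 libraries per group, genes near 3 counts per library could not be compared.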

Other observations

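Outside the lists, the genes that edgeR's quasi-likelihood test placed at an adjusted p under 0.1 included regulators of myeloid cells, chosen after their values were seen. Irf8, a transcription factor of macrophages and microglia, was at 6.19 and 19.0 CPM after light and at 1.00 and 1.11 CPM with minocycline. Cebpa, which directs myeloid differentiation, was at 7.48 and 20.2 CPM after light and at 1.39 and 0.848 CPM with minocycline. Slc15a3, a lysosomal peptide transporter, was at 7.60 and 22.4 CPM after light and at 0.435 and 0.424 CPM with minocycline (log2 fold change -5.09, SE 0.65, adjusted p = 0.0691). In all 3 genes light-exposed replicate 2 was the highest library.

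Among genes that lay higher and were close within each group, Herpud1, a component of endoplasmic reticulum-associated degradation, was at 38.0 and 39.3 CPM after light and at 77.8 and 74.2 CPM with minocycline (log2 fold change 0.99, SE 0.12, adjusted p = 0.0638). Mthfd2, a mitochondrial enzyme of folate metabolism, was at 9.17 and 6.89 CPM after light and at 27.1 and 22.3 CPM with minocycline (log2 fold change 1.64, SE 0.22, adjusted p = 0.0691). Sesn2, a stress-inducible regulator of mTORC1, was at 9.17 and 10.3 CPM after light and at 20.5 and 18.6 CPM with minocycline. Ppargc1a, a coactivator of mitochondrial biogenesis, was at 54.6 and 46.4 CPM after light and at 102 and 123 CPM with minocycline. Penk, the precursor of the enkephalins, was at 3.80 and 2.76 CPM after light and at 13.5 and 15.4 CPM with minocycline (log2 fold change 2.16, SE 0.28, adjusted p = 0.0691). These 5 genes were also chosen after their values were seen.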
